A study of Mus musculus with 6 samples.

Results

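The genes described here are 10 genes of smooth muscle contraction, the mouse forms of ACTA2, ACTG2, MYH11, MYLK, TAGLN, CNN1, SMTN, LMOD1, DES and MYOCD. They were chosen by symbol from the 24908 genes of a bulk RNA-seq table for their known role, and all 10 had a row. The rule used no value, but earlier results of these data were known when the list was made. Prostate lobes came from 12-week-old male FVB mice: 1 wild-type (WT) mouse and 1 littermate heterozygous for the Hi-MYC transgene (MYC), a human c-MYC gene under the ARR2Pb (probasin) promoter, which is active in prostate epithelium. From each mouse the anterior (AP), dorsolateral (DLP) and ventral prostate (VP) gave 1 library each, so that there were 6 libraries and n = 1 for each lobe and genotype. Both mice received the same purified diet. The lobes were digested with collagenase, hyaluronidase, trypsin and dispase and strained, and RNA was taken from the cell suspension, so that only cells released by digestion were measured. With 1 mouse per genotype, an effect of the transgene and other differences between these animals cannot be told apart, no p-value is given, and no spread between animals can be put on any value.

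Smooth muscle cells surround the prostatic glands and ducts, where their contraction expels the secretion, and lie in the walls of blood vessels. Force is made when myosin, switched on by phosphorylation of its light chain, pulls on actin filaments that are held to dense bodies and to the intermediate filaments of the cell. Many genes of this apparatus are switched on by serum response factor (SRF) bound to the CArG box, a short AT-rich element, together with the cofactor myocardin. The transgene promoter is directed to the epithelium, whereas these genes are typical of muscle, a neighbouring compartment of the lobe. Bulk RNA does not show which cells of the suspension expressed them.

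The unit of expression is FPKM, fragment numbers scaled by transcript length and by mapped reads, as deposited. Steps in the lowest values corresponded to about 25400000 mapped reads in WT AP, the shallowest library, and to 34700000 to 49850000 in the others. Of the 10 genes, 9 averaged 1 FPKM or more and entered the comparisons with all genes, and Myocd did not. The luminal keratins Krt8 and Krt18 were present in every library, at no less than 387.9 FPKM. Genes of seminal vesicle secretion summed to 524.1 FPKM in MYC AP, against 11.30 FPKM in MYC DLP and at most 0.2008 FPKM in the other 4 libraries. The genes compared were Svs4, Svs5 and Pate4, with 292.5, 212.0 and 8.545 FPKM in MYC AP and listed at 0 in WT and MYC VP. Results that rest on MYC AP or MYC DLP are to be read beside these levels.

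The promoters are shown first, because the genes are known for a shared way of being switched on. RefSeq (GRCm38.p6, the mm10 assembly that the processing notes name) gave a promoter for 6 of the 10 genes, Acta2, Mylk, Cnn1, Smtn, Lmod1 and Des. The 250 bases before the annotated start were searched on both strands for the CArG box, for the CArG box with 1 central G or C, for CATTCC (the MCAT element, bound by TEAD factors) and for CACGTG (the E-box that MYC with MAX binds). The 4 promoters with a match are printed 5′ to 3′ on the strand of the gene, with matches in capitals.
Acta2 (chr19:34255374-34255623, minus strand): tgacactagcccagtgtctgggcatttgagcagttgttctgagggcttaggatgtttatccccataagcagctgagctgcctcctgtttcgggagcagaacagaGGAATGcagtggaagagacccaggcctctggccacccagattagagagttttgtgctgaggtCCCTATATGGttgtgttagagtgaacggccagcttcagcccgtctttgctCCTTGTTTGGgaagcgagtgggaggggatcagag
Mylk (chr16:34784700-34784949, plus strand): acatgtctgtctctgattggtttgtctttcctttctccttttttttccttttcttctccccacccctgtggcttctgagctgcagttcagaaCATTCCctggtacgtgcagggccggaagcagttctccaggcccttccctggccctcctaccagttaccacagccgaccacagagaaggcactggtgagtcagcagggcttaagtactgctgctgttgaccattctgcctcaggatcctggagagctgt
Smtn (chr11:3539293-3539542, minus strand): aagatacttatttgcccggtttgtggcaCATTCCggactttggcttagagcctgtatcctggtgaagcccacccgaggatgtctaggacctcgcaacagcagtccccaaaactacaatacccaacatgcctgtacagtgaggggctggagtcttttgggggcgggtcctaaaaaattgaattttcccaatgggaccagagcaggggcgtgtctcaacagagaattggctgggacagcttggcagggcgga
Lmod1 (chr1:135324563-135324812, plus strand): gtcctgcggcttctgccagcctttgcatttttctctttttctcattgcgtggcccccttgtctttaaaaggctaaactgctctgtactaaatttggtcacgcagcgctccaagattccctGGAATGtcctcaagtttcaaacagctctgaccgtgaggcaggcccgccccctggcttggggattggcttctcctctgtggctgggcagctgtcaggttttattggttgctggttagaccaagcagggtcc
Acta2 carried 2 CArG boxes with 1 central G or C, CCCTATATGG from base -84 to base -75 and CCTTGTTTGG from base -34 to base -25, counted from the annotated start. Such a near match was in 7.24% of the 32851 mouse promoters searched in the same way. CATTCC, which does not overlap the CArG matches, was in 4 of the 6 promoters, against 12.6% of all promoters. The exact CArG box (1.47% of all promoters) and CACGTG (6.02%) were in none of the 6. The starts used for Acta2, Mylk and Cnn1 lie inside the annotated spans of the genes, so part of the Acta2 and Cnn1 windows and all of the Mylk window overlap the gene. These matches describe letters in a 250-base window and say nothing of binding.

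The actins came first in the contractile filament. Acta2 (chromosome 19, 34240336 to 34255585 in GRCm38), which encodes the alpha smooth muscle actin of vessel and stromal muscle, had 67.69, 114.3 and 89.44 FPKM in WT AP, DLP and VP and 114.7, 76.35 and 74.66 FPKM in the MYC lobes in the same order. It was 1.69-fold higher in MYC than in WT in AP, 1.5-fold lower in DLP and 1.20-fold lower in VP, the smallest VP difference of the 10 genes. Actg2 (chromosome 6, 83512909 to 83536251), the gamma actin typical of visceral muscle, had 11.32, 27.04 and 13.19 FPKM in WT AP, DLP and VP and 22.31, 13.87 and 7.635 FPKM in the MYC lobes. Its highest library was WT DLP and its lowest MYC VP. Per length, Actg2 was 0.237 of Acta2 in WT DLP and 0.102 in MYC VP, with the other 4 libraries between. Muscle actin transcripts share coding sequence, so the split of reads between these genes is uncertain. Between MYC and WT the median over the other 7 genes compared was 0.54, -0.75 and -0.97 in AP, DLP and VP, on the log2 scale described further on, near that with the actins.

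Myh11 (chromosome 16, 14194527 to 14292188), the myosin heavy chain that defines differentiated smooth muscle, had 24.77, 43.20 and 40.56 FPKM in WT AP, DLP and VP. In the MYC lobes it had 42.75, 18.53 and 15.27 FPKM. It was 2.33-fold lower in MYC DLP and 2.66-fold lower in MYC VP than in WT, and 1.73-fold higher in MYC AP. An exact 95% interval for the VP fold ran from 2.56 to 2.75 from an estimated 12966 and 4034 reads, and such intervals cover counting error alone, not the difference between animals. Mylk (chromosome 16, 34745199 to 35002436), which encodes the kinase that phosphorylates the myosin light chain, had 10.31, 13.71 and 11.92 FPKM in WT AP, DLP and VP and 15.53, 7.752 and 5.602 FPKM in the MYC lobes. It was 1.77-fold lower in MYC DLP, 2.13-fold lower in MYC VP and 1.51-fold higher in MYC AP.

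**Figure D1:**
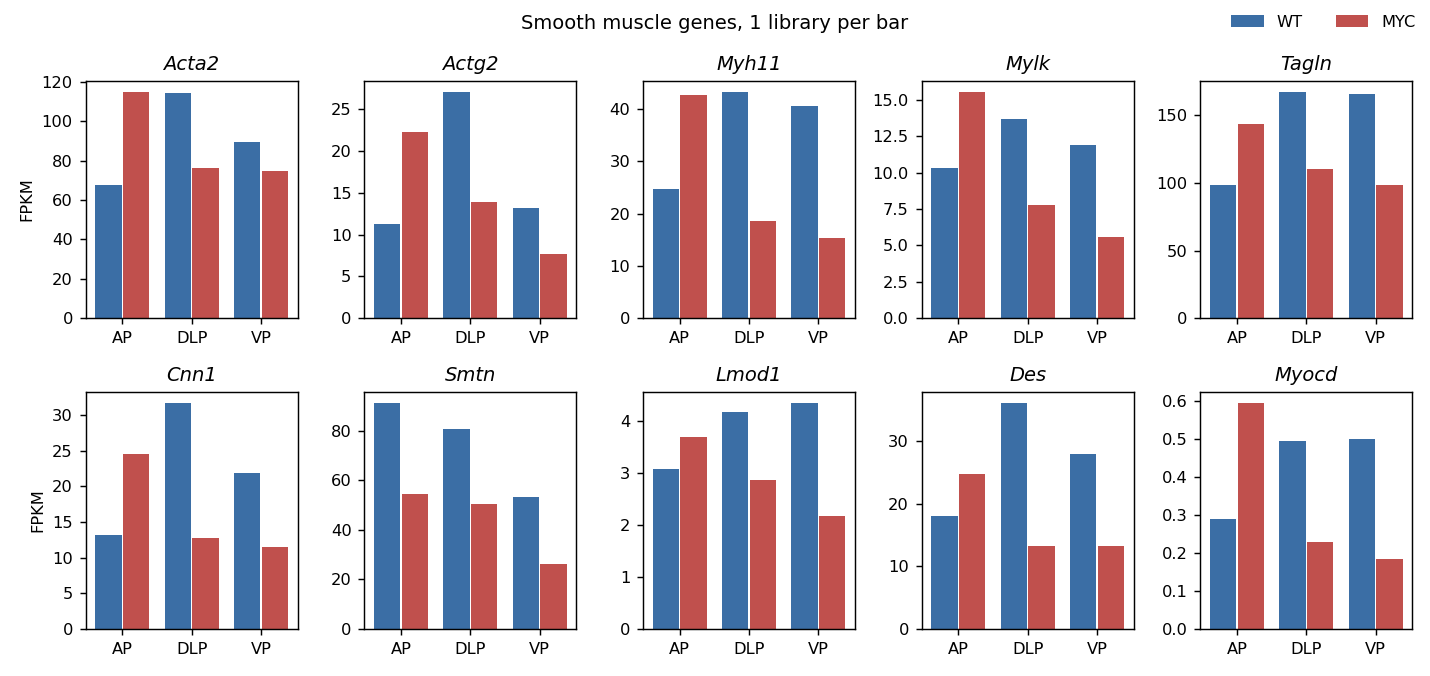
FPKM (vertical axis, from 0, a separate scale for each gene) of the 10 smooth muscle genes in the AP, DLP and VP of the WT mouse (blue) and the MYC mouse (red), with 1 library per bar and no error. In DLP and VP every red bar is below the blue one, and in AP the red bar is above for each gene except Smtn.

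Proteins that bind and steady the actin filament followed the actins, with 1 exception. Tagln (chromosome 9, 45929628 to 45936058), or SM22, a calponin-like protein and the most abundant of the 10 genes, had 98.33, 166.8 and 165.3 FPKM in WT AP, DLP and VP and 143.7, 110.3 and 98.08 FPKM in the MYC lobes. Cnn1 (chromosome 9, 22099221 to 22109221), calponin, which restrains the myosin ATPase, had 13.18, 31.71 and 21.91 FPKM in WT and 24.58, 12.81 and 11.47 FPKM in MYC. Lmod1 (chromosome 1, 135324813 to 135368065), leiomodin, which nucleates actin filaments, had 3.077, 4.170 and 4.349 FPKM in WT and 3.697, 2.868 and 2.18 FPKM in MYC. For these 3 genes MYC VP was the lowest library, for Tagln with WT AP barely above it (98.33 FPKM), and the MYC lobes ran from AP down to VP.
Smtn (chromosome 11, 3517522 to 3539292), smoothelin, which is found on the actin filaments of contractile muscle, was the exception. It had 91.29, 80.93 and 53.35 FPKM in WT AP, DLP and VP, so that AP was its highest WT lobe, whereas AP was the lowest WT lobe of the other 9 genes. In the MYC lobes it had 54.58, 50.63 and 26.28 FPKM, and it was lower in MYC in AP as well, by 1.67-fold. Per length Smtn was 1.35 times Acta2 in WT AP and 0.352 times Acta2 in MYC VP.

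Des (chromosome 1, 75360292 to 75368579), desmin, the intermediate filament of muscle, had 18.07, 36.04 and 27.94 FPKM in WT AP, DLP and VP and 24.68, 13.24 and 13.19 FPKM in the MYC lobes. It was 2.72-fold lower in MYC DLP, the largest DLP difference of the 10 genes, and 2.12-fold lower in MYC VP. Desmin is also made by skeletal muscle, and some of its genes moved with Des. Of 15 skeletal muscle genes 4 were compared, with medians of 0.31, -0.55 and -0.35 in AP, DLP and VP, and the 15 summed to 9.303, 22.48 and 20.16 FPKM in the WT lobes and to 16.78, 13.99 and 14.85 FPKM in the MYC lobes. Tnnc2, a fast-muscle troponin C, had 0.8865, 4.363 and 4.228 FPKM in WT AP, DLP and VP and 2.916, 1.125 and 2.907 FPKM in MYC, with log2 ratios of 1.05, -1.34 and -0.42, on the scale described further on. Acta1, the skeletal actin, ranged from 4.746 FPKM in WT AP to 13.89 FPKM in WT DLP, with -1.07 in DLP and -0.31 in VP, and as a muscle actin it shares sequence with Acta2 and Actg2. Mylpf (-0.03 in DLP and -0.39 in VP) had at most 1.769 FPKM. Tnni2 went the other way from Des in DLP, with 0.7367 FPKM in WT and 2.055 FPKM in MYC (0.81), and had -0.24 in VP. Named after their values were seen, Neb, which encodes nebulin, had 2.5 and 2.602 FPKM in MYC AP and DLP and at most 0.04146 FPKM in the other 4 libraries, Myog is listed at 0 in all 6 libraries, Ckm reached 0.9109 FPKM, and the fast myosin Myh4 reached 0.004023 FPKM. The part of skeletal muscle in the Des values was not tested.

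Myocd (chromosome 11, 65173608 to 65269989), the SRF cofactor myocardin, was the scarcest, with 0.2875, 0.4928 and 0.4995 FPKM in WT AP, DLP and VP and 0.5934, 0.2281 and 0.1836 FPKM in the MYC lobes. These levels stand for an estimated 23 to 91 reads per library. Its fold changes were therefore the least precise, 2.72-fold lower in MYC VP with a counting interval of 1.72 to 4.62, and 2.06-fold higher in MYC AP with an interval of 1.27 to 3.35. The order of its 6 libraries, with MYC AP highest and MYC VP lowest, was close to that of Mylk.

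**Figure D2:**
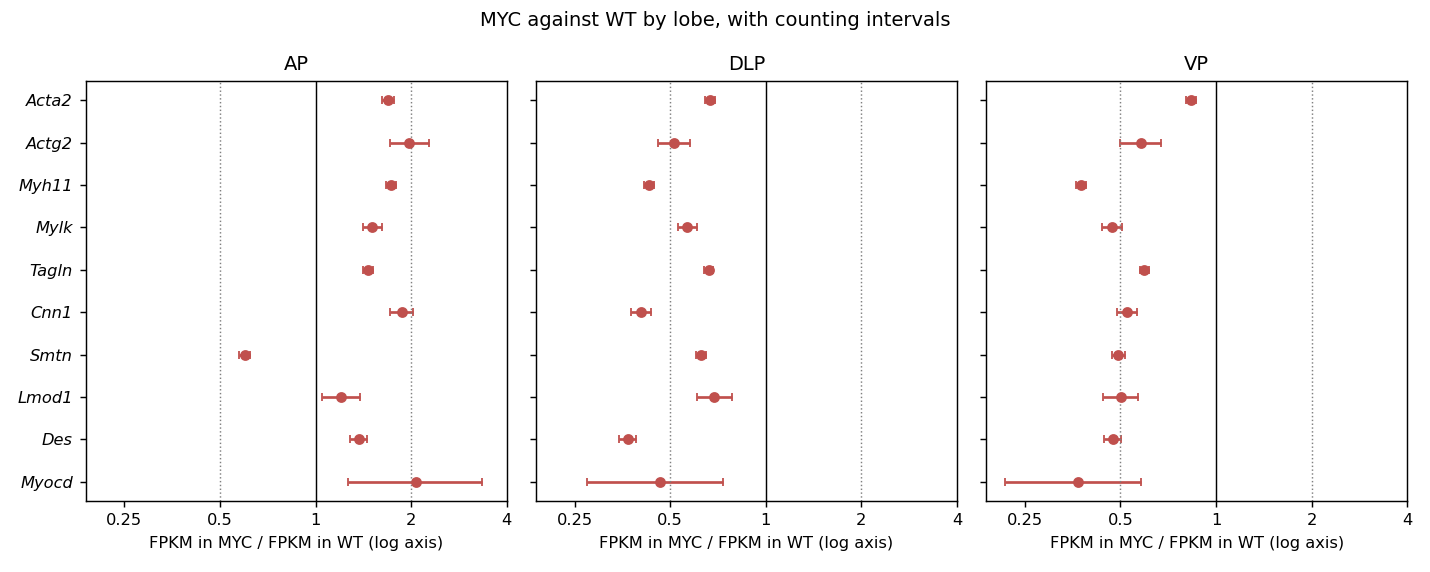
FPKM in MYC divided by FPKM in WT (horizontal log axis) for each gene in AP, DLP and VP, with exact 95% counting intervals from estimated reads as bars and dotted lines at 0.5 and 2. Myh11 in VP is at 0.377, Des in DLP at 0.367 and Smtn in AP at 0.598, and Myocd has the widest intervals.

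Side by side, the smooth muscle genes were lower in MYC than in WT in DLP and VP and mostly higher in AP. On the scale of log2((FPKM + 1) of MYC / (FPKM + 1) of WT), here the log2 ratio, the median of the 9 genes compared was 0.55, -0.75 and -0.88 for AP, DLP and VP. The medians of all 12361 genes that averaged 1 FPKM or more were 0.13, 0.03 and 0.04 in the same order. In VP, 9 of 9 were below 0, against 46.4% of all genes, and in DLP also 9 of 9, against 46.2%. In AP, 8 of 9 were above 0, against 66.4% of all genes. With a threshold of 2-fold on this scale, Myh11 (-1.35) and Des (-1.03) were lower in VP, which is 2 of 9 genes against 5.95% of all, and none was higher, against 6.88%. Smtn (-0.99) and Mylk (-0.97) lay just short of it, and under the other scalings of the libraries the VP count was between 4 and 6, all lower, where 7.45% to 9.58% of all genes were lower and 4.22% to 5.76% higher. In DLP, Des (-1.38), Cnn1 (-1.24) and Myh11 (-1.18) were lower, which is 3 of 9 against 3.39%, and none was higher, against 6.46%. In AP none of the 9 passed 2-fold, where 2.05% of all genes were higher and 0.599% lower. Actg2 had the highest AP value, 0.92. Each rests on 1 library per genotype. In bulk RNA, fewer smooth muscle cells and less RNA of these genes per cell cannot be told apart.

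The combination of a value above 0 in AP with values below 0 in DLP and VP was seen for 8 of the 9 genes, and for 18.2% of all genes. Both Myh11 and Des were at least 2-fold lower in DLP and in VP, against 1.88% of all genes. All 30 ratios of MYC against WT, over 10 genes and 3 lobes, had counting intervals that did not include 1, Lmod1 in AP being the nearest with 1.05 to 1.38. Seminal vesicle genes stood at 524.1 FPKM in MYC AP and 11.30 FPKM in MYC DLP, and their part in the AP and DLP values was not tested. In VP they summed to 0.02636 FPKM in WT and 0.00862 FPKM in MYC.

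Within the WT mouse, the smooth muscle genes summed highest in DLP. The 10 genes together made up 0.120% of all FPKM in WT DLP, 0.105% in WT VP and 0.0904% in WT AP. The median log2 ratio was 0.76 for DLP against AP, with Cnn1 (1.21) and Actg2 (1.19) past 2-fold, 2 of 9 genes against 3.85% of all, and none was 2-fold lower, against 1.31%. With libraries scaled to equal sums 1 gene passed, where 2.63% of all genes were higher and 2.25% lower. For VP against AP the median was 0.40, with Tagln highest at 0.74 and Smtn lowest at -0.76, and none past 2-fold (7.89% of all genes were higher and 10.3% lower). WT VP and WT DLP were closer, with a median of -0.35 and no gene past 2-fold (6.29% of all genes were lower and 2.63% higher). For Tagln, Lmod1 and Myocd the counting interval of this pair included 1, so their WT DLP and WT VP levels were not distinguishable at this depth, and the sign for Tagln (-0.01), Myh11 (-0.09) and Mylk (-0.19) turned under another scaling. Actg2 stood out in the same pair at -0.98, and at -1.03 with a pseudocount of 0.1.

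Within the MYC mouse the order of the lobes was another one. The 10 genes made up 0.118%, 0.0683% and 0.0527% of all FPKM in MYC AP, DLP and VP. All 9 genes were below 0 in VP against AP, where 51.1% of all genes were, with a median of -1.03. Actg2 and Myh11 (both -1.43), Mylk (-1.32), Cnn1 (-1.04) and Smtn (-1.03) were past 2-fold there, 5 of 9 against 16.1% of all genes, and none was higher, against 8.98%. The count was 3 with scaling by medians of ratios, where 14.3% of all genes were lower and 11% higher. For DLP against AP the median was -0.65 and Myh11 alone passed 2-fold (-1.16), 1 of 9 against 3.49%, and none was higher, against 4.54%. With equal sums 4 genes were lower, against 5.03% of all genes, whose higher share was then 2.91%. MYC VP and MYC DLP differed by a median of -0.26, with Smtn lowest at -0.92, none past 2-fold (14% of all genes were lower and 3.54% higher), and counting intervals that included 1 for Acta2, Des and Myocd. The signs of Acta2 (-0.03), Tagln (-0.17), Cnn1 (-0.15) and Des (-0.01) in that pair turned when libraries were scaled by medians of ratios. Comparisons of VP and of DLP with AP share the AP library. In MYC the AP and, at a lower level, the DLP library carry the seminal vesicle transcripts. Every comparison of lobes in that mouse uses the AP or the DLP library, and the part of these transcripts in them was not tested.

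**Figure D3:**
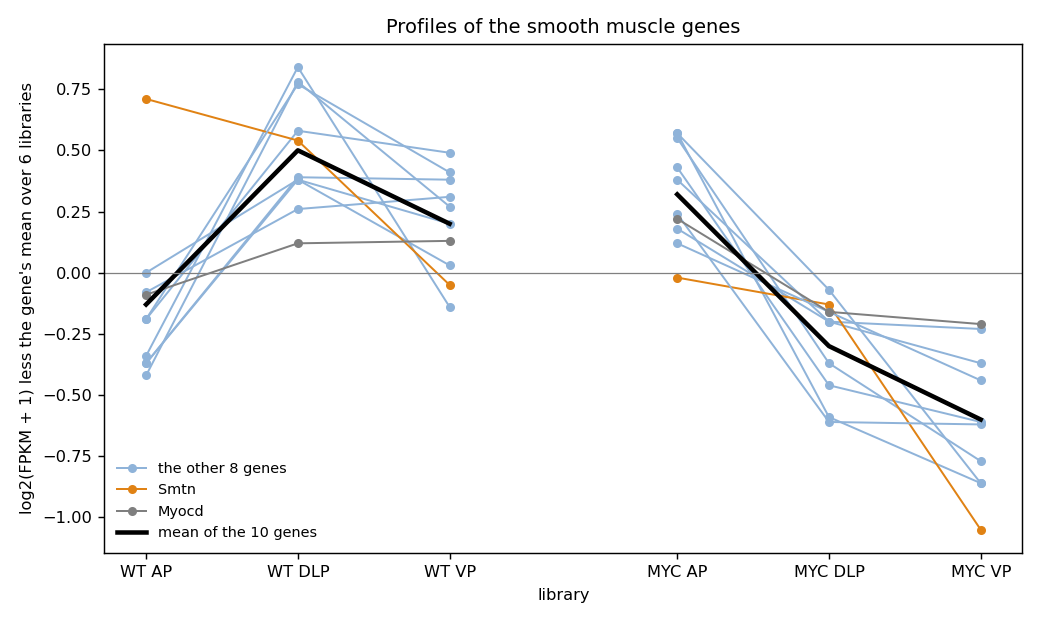
log2(FPKM + 1) of each gene less its own mean over the 6 libraries (vertical axis), by library, with lines joining the lobes of 1 mouse, Smtn in orange, Myocd in grey, the other 8 genes in light blue and the mean of the 10 genes in black. The mean profile goes from -0.13 in WT AP to 0.50 in WT DLP and from 0.32 in MYC AP to -0.60 in MYC VP, and Smtn starts at 0.71 in WT AP.

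The genes shared this profile to different degrees. The root mean square difference of a gene from the mean profile of the 10 genes was taken in log2 units over 6 libraries. Among the 10 it was smallest for Mylk (0.14), Lmod1 (0.16) and Tagln (0.17) and largest for Smtn (0.43). Each of the 10 is itself part of that mean, which draws its difference down, and other genes are not. Among 5352 other genes that averaged 10 FPKM or more, whose median difference was 0.505, Myl9 was nearest at 0.096. Myl9, the regulatory light chain that the Mylk kinase phosphorylates, had 57.50, 100.6 and 85.25 FPKM in WT AP, DLP and VP and 91.24, 60.95 and 41.93 FPKM in MYC. Next came Pgrmc1 (0.117), Rab5b (0.119), Secisbp2l (0.122), Slc35a3 (0.124), Mxra8 (0.128), Meis1 (0.130), Syap1 (0.140), Zfp809 (0.143) and Sdc2 (0.155). Myl9 and those down to Meis1 lay nearer the mean profile than any of the smooth muscle genes, so the profile was not particular to them. The order of these nearest genes rests on MYC AP. Without that library, an alternative added after the data were seen, Tmbim4 was nearest (0.082), Myl9 had rank 6 (0.101), and 4 of these 10 genes (Myl9, Slc35a3, Rab5b and Meis1) were again among the nearest 10.

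Further genes known from the smooth muscle cell were followed by lists, though bulk RNA does not show which cells expressed them. Some stood far above Acta2, such as Tpm1 at 1038 FPKM and Myl6 at 811.4 FPKM in WT AP, both named after their values were seen. Of 28 further genes of the contractile apparatus and its anchors, 26 were compared, and their median log2 ratio was -0.46 in DLP and -0.59 in VP. In AP it was 0.09, against 0.13 for all genes, and it turned to -0.06 with scaling by medians of ratios. There 15 of the 26 were above 0, against 66.4% of all genes, so this list did not share the AP values of the 10 genes. The 28 summed to 3571 FPKM in WT AP and 2679 FPKM in MYC AP, where the 10 genes summed to 338.3 and 447.1 FPKM. In VP 7 of the 26 were past 2-fold lower (5.95% of all genes) and none higher (6.88%), and 22 were below 0 (46.4%). In DLP 1 of the 26, Synm, was past 2-fold lower, against 3.39% of all genes, and in AP 1, Fhl1 (-1.20, named after its value was seen), against 0.599%. Hspb6, a small heat shock protein of muscle, had 35.62 and 10.52 FPKM in WT and MYC VP (-1.67), and 14.82 and 7.255 FPKM in WT and MYC DLP. Synm, which encodes synemin, a partner filament of desmin, had 5.732 and 1.465 FPKM in WT and MYC VP (-1.45). Nexn, which encodes the actin-binding protein nexilin, had 15.35 and 5.221 FPKM (-1.39). The list did not move as 1 block: Synpo2, synaptopodin 2, was higher in MYC VP (3.477 and 7.308 FPKM, 0.89) and lower in MYC DLP (-0.92), and Pdlim3 (0.56) and Cald1, caldesmon (0.28), were also above 0 in VP.

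Calcium channels, pumps and receptors that drive contraction were mostly scarce, with 8 of 18 compared. Their medians were 0.17, -0.17 and -0.42 in AP, DLP and VP, and 2 of the 8 were past 2-fold lower in VP, against 5.95% of all genes. Chrm3, the muscarinic receptor of parasympathetic nerves, had 2.722 and 0.5336 FPKM in WT and MYC VP (-1.28), and Ednra, an endothelin receptor, had 3.183 and 1.089 FPKM (-1.0). Pde5a, the phosphodiesterase that breaks down cyclic GMP, had 1.534 and 0.5853 FPKM (-0.68). Agtr1a, an angiotensin receptor, had 27.29 and 29.59 FPKM in WT and MYC VP, and 4.893 and 11.89 FPKM in AP (1.13). Atp2a2, the calcium pump, and Ednrb had VP values of -0.17 and -0.11.
Among 12 compared regulators, which are widely expressed, the medians were -0.19, -0.11 and -0.27 in AP, DLP and VP. Rock2, a kinase that keeps myosin phosphorylated by inhibiting its phosphatase, had 37.36 and 16.08 FPKM in WT and MYC VP (-1.17). Tgfbr2, a TGF-beta receptor subunit, had 14.80 and 6.493 FPKM (-1.08), and Tead1, a TEAD factor, 17.72 and 8.362 FPKM (-1.0, just under 2-fold). Tgfb1 was higher in MYC VP (7.508 and 12.50 FPKM, 0.67) and, at 35.52 against 17.26 FPKM, past 2-fold in MYC DLP. Also above 0 in VP were Foxo4 (0.39) and Elk1 (0.18).

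Relatives of the 10 genes were followed as a contrast. Of 17 such genes, mostly of non-muscle cells or striated muscle, 10 were compared, and their medians were -0.40, -0.06 and -0.27 in AP, DLP and VP. Actg1, the cytoplasmic gamma actin, had 3641 and 3620 FPKM in WT and MYC VP (-0.01). Tagln2 was higher in MYC VP (171.0 and 301.7 FPKM, 0.82) and in MYC DLP (0.81), where Tagln was lower. Myh10, a non-muscle myosin, had 10.48 and 23.41 FPKM in WT and MYC VP (1.09), whereas Myh9 had 185.6 and 115.5 FPKM (-0.68). Cnn2 (65.33 and 31.40 FPKM, -1.03) and Vim, vimentin (58.43 and 27.21 FPKM, -1.08), were past 2-fold lower in VP. Ratios of FPKM within a library do not depend on how libraries are scaled. Tagln over Tagln2 was 0.805 in WT DLP and 0.304 in MYC DLP, 0.967 in WT VP and 0.325 in MYC VP, and in AP it was 0.367 in WT and 0.783 in MYC. Myh11 over Myh9 was 0.219 in WT VP, 0.132 in MYC VP, 0.105 in WT AP and 0.259 in MYC AP. Acta2 over Actb differed little in VP, with 0.0304 in WT and 0.0277 in MYC. Cnn1 over Cnn2 was higher in MYC VP, with 0.336 in WT and 0.365 in MYC. The denominators were themselves lower in MYC AP, which enters the AP ratios: Actb (-0.69), Cnn2 (-0.68), Tagln2 (-0.54) and Myh9 (-0.51).

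**Figure D4:**
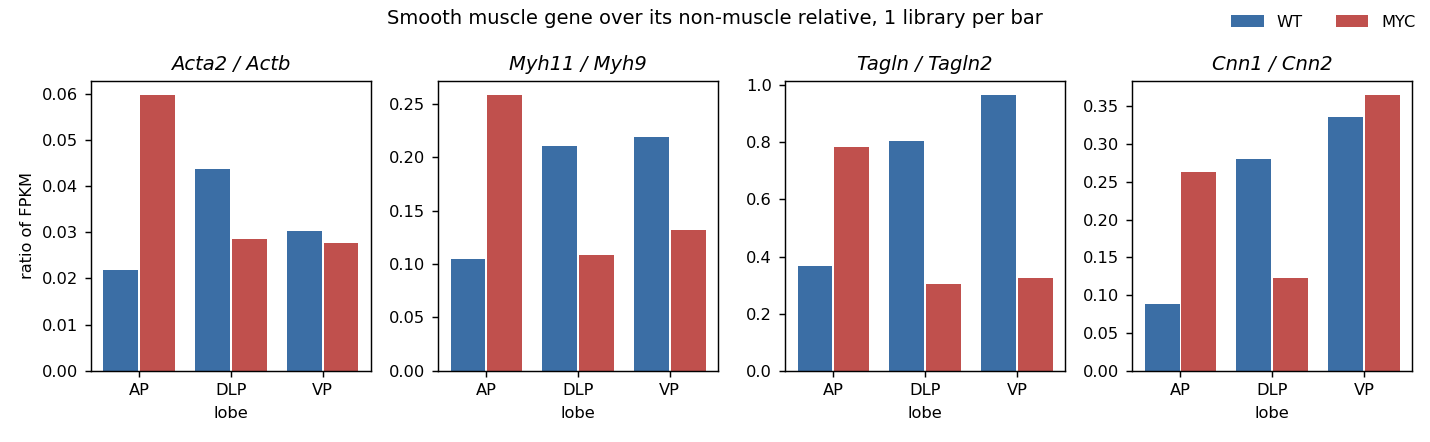
FPKM of a smooth muscle gene divided by FPKM of a relative typical of other cells (vertical axis, from 0, a separate scale for each pair) by lobe in WT (blue) and MYC (red), with 1 library per bar. Acta2 over Actb is 0.0219 in WT AP and 0.0597 in MYC AP, and Tagln over Tagln2 is 0.967 in WT VP and 0.325 in MYC VP.

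Of the other cell types of the suspension, the fibroblast genes too had the signs of the smooth muscle genes in all 3 lobes, and their part in the values was not tested. The 16 fibroblast genes had medians of 0.52, -0.58 and -1.52 in AP, DLP and VP, and their summed level went from 1310 FPKM in WT VP to 363.3 FPKM in MYC VP. In VP 12 of the 16 were past 2-fold lower, against 5.95% of all genes, with Dpt (-2.92), Pi16 (-2.90) and Gsn (-2.03) lowest and Col1a1 (0.19), Col3a1 (-0.45) and Col1a2 (-0.46) highest. Col1a1 (1.98) and Col3a1 (2.03) were higher in MYC DLP, where the list's median was below 0. None of the 16 was at 0 in any library. The median of the smooth muscle genes thus lay 0.64 above that of the fibroblast genes in VP, 0.17 below it in DLP and 0.03 above it in AP.
The medians of vessel-wall markers differed less between the genotypes on this scale. The 8 pericyte genes compared had medians of 0.22, 0.11 and -0.09 in AP, DLP and VP, and the summed level of all 10 was 11.86 and 11.60 FPKM in WT and MYC VP, with none at 0. Rgs5, a pericyte marker, had 1.352 and 1.710 FPKM in WT and MYC VP, while Pdgfrb had 2.662 and 1.378 FPKM (-0.62). The VP values of the others named were 0.44 for Notch3, 0.19 for Mcam, -0.22 for Ndufa4l2 and -0.30 for Abcc9. Many of these pericyte levels were near 1 FPKM or below, where the pseudocount of 1 pulls log2 ratios toward 0. Without it, MYC over WT in VP was 0.518 for Pdgfrb, 0.529 for Ndufa4l2 and 0.572 for Abcc9. The same ratio was 1.265 for Rgs5, 1.635 for Notch3 and 1.181 for Mcam. The 12 endothelial genes had medians of 0.10, 0.23 and 0.09 and summed to 40.45 and 45.36 FPKM in WT and MYC VP. Egfl7 (1.01), Pecam1 (0.37) and Esam (0.32) were highest in VP among them, and Tek (-0.41), Eng (-0.27) and Kdr (-0.13) lowest. Between WT VP and WT AP these markers and the smooth muscle genes differed in opposite directions when summed: WT VP held 11.86 FPKM of pericyte and 40.45 FPKM of endothelial genes, against 39.98 and 255.2 FPKM in WT AP, whereas the 10 smooth muscle genes summed to 428.5 FPKM in WT VP and 338.3 FPKM in WT AP. Smtn (-0.76) was on the side of the markers. The further contractile genes had a median of -0.12, near the -0.01 of all genes, and so did not share the higher sum in WT VP. Between WT VP and WT DLP all of these sums were lower in VP, with 32.83, 182.2 and 518.4 FPKM in WT DLP.
The 14 hematopoietic genes compared had medians of -0.16, 1.85 and 1.17 in AP, DLP and VP, signs opposite to those of the smooth muscle genes, with summed levels of 331.2 and 1290 FPKM in WT and MYC DLP. Lyz2 (3.65), Laptm5 (2.18) and Cd52 (2.06) were highest in VP and Cd79a (-0.32), Itgam (0.36) and Itgax (0.76) lowest. Basal epithelial genes had medians of -0.41, 0.32 and -0.59, with Krt5 (-0.04), Itga6 (-0.22) and Col17a1 (-0.29) highest in VP and Trp63 (-1.20), Dst (-0.73) and Krt17 (-0.72) lowest. Luminal genes had medians of -0.13, 0.28 and -0.26, with Krt19 (0.47), Epcam (0.13) and Cldn3 (0.03) highest and Cdh1 (-0.58), Cd24a (-0.31) and Cldn7 (-0.30) lowest. Of the adipocyte genes only 2 were compared, Pparg (0.43) and Fabp4 (0.29). The dissociation response genes, several of which are themselves controlled by SRF, had medians of 0.16, 0.03 and -0.50 in AP, DLP and VP. Egr1 had 1124 and 637.0 FPKM in WT and MYC VP (-0.82), with Fosb (-0.75) and Junb (-0.54) next. Ier2 (0.19), Atf3 (-0.39) and Jun (-0.43) were highest in VP. Srf, named after its values were seen, had -0.36, -0.11 and -0.31 in AP, DLP and VP. The activity of SRF was not tested.

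**Figure D5:**
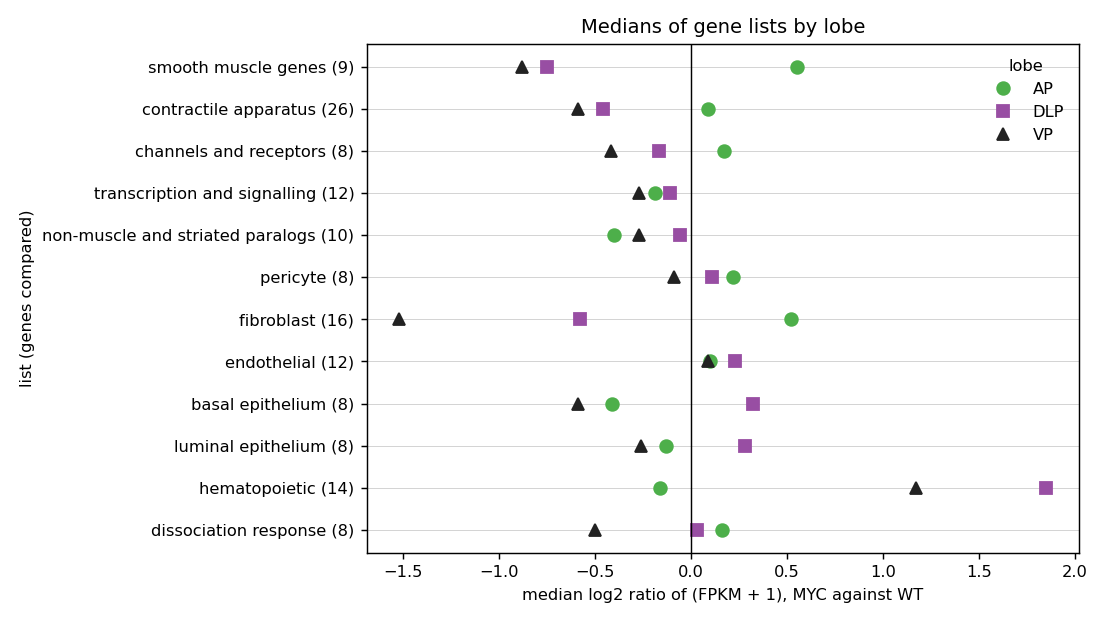
Median log2 ratio of MYC against WT (horizontal axis) of the smooth muscle genes and of 11 other lists (number of genes compared in brackets) in AP (green circles), DLP (purple squares) and VP (black triangles). The smooth muscle genes lie at 0.55, -0.75 and -0.88, the fibroblast genes at 0.52, -0.58 and -1.52, and the endothelial genes between 0.09 and 0.23.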

How the data were processed

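Bulk RNA-seq of 6 libraries was analysed from 1 deposited table. Per the labels, the authors used bcl2fastq 2.18, STAR and Cufflinks with the mm10 assembly, and deposited FPKM; the study's methods call the output read counts, but the values are not whole numbers. The annotation is not given in the sources used here. FPKM were used as deposited, with a pseudocount of 1, a minimum mean of 1 FPKM over the 6 libraries and a 2-fold threshold. Columns were matched to samples by title. No count model was run.

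Mapped reads were recovered as the depth at which FPKM under 0.3 of single-exon genes, times transcript length less 200 bases, falls on whole reads. Between 44.0% and 56.2% of 84 to 108 values per library came out whole to within 0.03. Reads per gene, from mean protein-coding GENCODE M1 transcript length, are estimates and gave exact binomial (Clopper-Pearson) 95% intervals. Coordinates are RefSeq GRCm38.p6, in which 24344 symbols matched directly.

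Genes and lists were chosen with earlier results of these data known. All 10 genes are named, and of other lists the 3 highest and 3 lowest VP log2 ratios (all where at most 6), beside genes said to be named after their values were seen; 1 list is not reported here. Nearest genes had a mean of at least 10 FPKM. Alternatives were 3 other scalings of the libraries, a pseudocount of 0.1, no filter or a mean of 10 FPKM, thresholds of 1.5-fold and 4-fold, and leaving out both actins. Computations were tested on simulated data. Computation used scipy 1.17.1, pandas 2.3.3 and numpy 2.4.6 in Python 3.11.15, and plots matplotlib 3.10.9.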

Additional observations from a re-analysis of the deposited data

Results flagged for a closer look

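The MYC against WT log2 ratio had opposite signs in AP and in the other lobes for each of the smooth muscle genes except Smtn. How the lobes differed was not tested, because each value rests on 1 library per lobe and genotype, and those with AP all use MYC AP, in which seminal vesicle transcripts were highest, and those of DLP with AP also MYC DLP, which held them at a lower level. The median over the 9 genes compared differed by -1.43 between VP and AP and by -1.30 between DLP and AP. Between VP and AP, Myh11 differed by -2.12, Cnn1 by -1.73, Actg2 by -1.64, Mylk by -1.52, Des by -1.46, Tagln by -1.29, Acta2 by -1.01, Lmod1 by -0.95 and Myocd by -0.65. Between DLP and AP the differences were -2.10 for Cnn1, -1.94 for Myh11, -1.83 for Actg2, -1.81 for Des, -1.33 for Acta2, -1.30 for Mylk, -1.14 for Tagln, -0.62 for Lmod1 and -0.59 for Myocd.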

How the results depend on the processing

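No paired analysis was possible because each group has 1 library, so that no replicate numbers pair samples, and the lobes of 1 mouse are not replicates of its genotype. Each of the 120 recomputed MYC against WT ratios of single smooth muscle genes kept its direction under 3 other scalings and a pseudocount of 0.1, and 107 also kept their side of 2-fold. Of 240 ratios of lobe against lobe, 231 kept their direction. Those that turned were all of VP against DLP: in WT, with medians of ratios, Myh11 (0.12), Mylk (0.02) and Tagln (0.20), and Tagln also with equal sums (0.06) and equal sums without the 20 highest genes (0.08); in MYC, with medians of ratios, Acta2 (0.14), Tagln (0.00), Cnn1 (0.01) and Des (0.15). Scaling moved the median of all genes by -0.22 at most in MYC against WT, in VP, and by -0.29 in VP against AP in MYC. The cause of the changes was not tested.

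The median in VP, MYC against WT, was -1.10 with equal sums and -1.13 without the 20 highest genes. For VP against AP in MYC it was -0.90 with medians of ratios and -0.94 with no filter. The count past 2-fold in VP, MYC against WT, was 4 with medians of ratios, 5 with equal sums, 6 without the 20 highest genes and 4 with a pseudocount of 0.1, all lower, where 7.45%, 8.8%, 9.58% and 10.3% of all genes were lower. For DLP against AP in WT it was 1 with equal sums (2.63% of all genes higher) and 1 without Acta2 and Actg2, and in MYC 4 with equal sums (5.03% lower), also without the 20 highest genes (4.75%). For VP against AP in MYC it was 3 with medians of ratios (14.3% lower). For VP against DLP it was 1 in WT with a pseudocount of 0.1 (11.2% lower) and 1 in MYC with equal sums (15.1% lower). A 1.5-fold threshold gave 5 of 9 genes in AP (4 higher and Smtn lower), 7 in DLP and 8 in VP for MYC against WT, where 10.7%, 22.9% and 31.7% of all genes passed it in either direction. It gave 6 for DLP against AP (17.2% of all genes), 5 for VP against AP (37.9%) and 2 for VP against DLP (24.9%) in WT, and 5 for DLP against AP (21.6%) and 2 for VP against DLP (35%) in MYC. A 4-fold threshold gave 0 in DLP and VP for MYC against WT. It also gave 0 for DLP against AP in WT and in MYC and for VP against AP in MYC. The share of all genes past 4-fold is not given here, so these counts cannot be set against it. With 1 library per group no test gives a p here.

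Among the other lists, chosen for this after the data were seen, medians near 0 turned: the contractile apparatus in AP (-0.06) and the endothelial genes in AP (-0.04) with medians of ratios, the endothelial genes in VP with equal sums (-0.05) and without the 20 highest genes (-0.08), and the pericyte genes in DLP without the 20 highest genes (-0.00). Myocd, at 23 to 91 estimated reads, is limited by depth.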
